A study of Mus musculus with 9 samples.

Results

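The 49 genes described here encode the machinery that copies DNA and supplies its nucleotides, and they were followed in neural stem cells (NSCs) that were kept proliferating or were moved to BMP4. They were chosen by name and role, and each was found by its Ensembl identifier among the 55704 genes of the deposited table. All 49 passed the filter on low values (a mean of at least 0.1 FPKM, the fragments of a gene scaled to its length in kilobases and to the library's size), which 20207 genes passed in all. By role they fell into the origin recognition complex (6 genes), the licensing loaders with their inhibitor (3), the Mcm2-7 helicase (6), Mcm8 and Mcm10 (2), Cdc45 and GINS (5), the sliding clamp and its loader (6), the single-strand binding complex RPA (3), polymerase alpha-primase (4), polymerases delta and epsilon (5), Lig1 and Fen1 (2), nucleotide supply (5) and chromatin assembly factor 1 (2).

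Bulk RNA-seq covered 9 libraries in 3 groups of 3. The cells of every group were NSCs from the subventricular zone of C57BL/6 mice aged 8 to 9 weeks (2 female and 2 male mice were pooled for an isolation), passaged at least 3 times and plated as an adherent layer in bFGF and EGF for 16 to 18 hours. The bFGF/EGF-treated NSCs were collected at day 0, whereas the bFGF/BMP4-treated and the BMP4-treated NSCs had a further 6 days in medium where BMP4 took the place of EGF, or of both growth factors, and 20 ng/mL was the dose of every factor. Because the bFGF/EGF libraries, which served as controls for both comparisons, lack the 6 days in the new medium, the medium and the time in culture cannot be told apart in any difference from them. The series design calls the libraries of a group biological replicas without saying whether they came from separate isolations, so p-values measure the spread between these libraries only.

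Replication begins when the origin recognition complex marks origins and, with Cdc6 and Cdt1, loads the Mcm2-7 helicase in G1 phase, a step called licensing that geminin blocks outside G1. In S phase Cdc45 and GINS turn the helicase on, polymerase alpha-primase lays down primers, and polymerases delta and epsilon extend them, held to DNA by PCNA, which the RFC complex loads. Ribonucleotide reductase, thymidylate synthase, thymidine kinase and dUTPase supply the deoxynucleotides, and many of these genes are transcribed at the G1/S transition under E2F factors. Quiescent stem cells in the adult brain are outside the cell cycle and hold little of the licensing machinery.

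Between 15892854 and 17419822 fragments lay on genes in each library. The Pearson correlation of log2 values across genes was 0.95 to 0.964 within groups and at most 0.915 between groups. Of the 7 NSC markers, 3 (Nes, Vim and Fabp7) were called lower and 1 (Pax6) higher in bFGF/BMP4, and 1 (Nes) lower and 2 (Pax6 and Msi1) higher in BMP4; with bFGF/EGF first and BMP4 last, Sox2 averaged 167, 137 and 137, Nes 151, 3.55 and 15.8, and Vim 677, 167 and 892 FPKM. The summed level of the 7 astrocyte markers was 176 to 241, 654 to 742 and 3608 to 4506 FPKM in the 3 groups, and 6 of the 7 were called higher than in bFGF/EGF in each BMP4 group (Aldh1l1 was lower), Gfap going from 0.0926 to 19.4 and 2566 FPKM. Between the BMP4 groups these markers did not move alike. In BMP4, 4 were called higher (Aqp4, Gfap, Aldh1l1 and Aldoc) and 2 lower than in bFGF/BMP4. The 2 were Slc1a2, from 175 to 65.5 FPKM on average, and Gjb6, from 2.96 to 0.238. S100b, at 55.1 and 40.1 FPKM, was not called. The sums that follow hold only the markers that passed the filter on low values. For 7 of 8 oligodendrocyte lineage markers they were 1564 to 2264, 1320 to 1802 and 243 to 444 FPKM, with Sox10 at 0 in both BMP4 groups. For 5 of 6 neuron markers they were 72.3 to 88.0, 47.4 to 53.2 and 142 to 213 FPKM, but these genes did not move alike. Tubb3 averaged 20.3, 17.0 and 145 FPKM, Map2 56.2, 30.5 and 34.1, and Rbfox3 0.989, 1.57 and 0.522. The means of Dcx and Snap25 were highest in BMP4. That of Dcx rested largely on BMP4 replicate 1, the BMP4 libraries being at 1.99, 0.342 and 0.384 FPKM. Of the 5 ependymal markers 3 passed the filter and summed to 6.34 to 11.1, 9.94 to 10.9 and 54.8 to 64.9 FPKM. Tmem212 was at 0 everywhere. Of the 6 microglia markers only 1, P2ry12, passed, at no more than 0.756 FPKM in any library, with Itgam at 0 everywhere. Of the 7 endothelial and mural markers 3 (Kdr, Pdgfrb and Rgs5) passed, and these were called higher in BMP4. They summed to 0.141 to 0.252, 1.43 to 2.32 and 3.65 to 5.39 FPKM, with Cldn5 at 0 everywhere. The part of these cell type markers in the results below was not tested.

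Promoter letters are shown for 7 of the genes because the E2F-type motif, in capitals, occurs in genes that fell steeply (Mcm5, Mcm6, Cdc6, Orc1) and in genes that did not pass the thresholds (Orc3, Gins3), while the window of Rrm2, another steep fall, holds none of the letters searched. The sequences are from RefSeq, build GRCm38.p6, on the strand of the gene and read 5′ to 3′. For Mcm6, Gins3 and Rrm2 the 160 bases up to the annotated start are printed, and for the others the 30 bases around the match; the stretch of Orc3 also lies within Rars2.
Mcm6, chr1:128359706-128359865, minus strand: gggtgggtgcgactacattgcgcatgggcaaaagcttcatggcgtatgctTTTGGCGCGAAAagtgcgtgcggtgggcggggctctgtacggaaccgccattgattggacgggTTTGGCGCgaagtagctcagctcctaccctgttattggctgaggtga
Mcm5, chr8:75109349-75109378, plus strand: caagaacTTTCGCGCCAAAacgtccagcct
Cdc6, chr11:98908002-98908031, plus strand: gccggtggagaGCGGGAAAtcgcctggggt
Orc1, chr4:108579416-108579445, plus strand: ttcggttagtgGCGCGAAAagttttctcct
Orc3, chr4:34614965-34614994, minus strand: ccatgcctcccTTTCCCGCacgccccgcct
Gins3, chr8:95633399-95633558, plus strand: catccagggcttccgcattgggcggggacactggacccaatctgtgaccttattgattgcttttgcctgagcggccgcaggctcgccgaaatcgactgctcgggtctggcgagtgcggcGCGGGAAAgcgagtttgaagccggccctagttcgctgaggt
Rrm2, chr12:24708094-24708253, plus strand: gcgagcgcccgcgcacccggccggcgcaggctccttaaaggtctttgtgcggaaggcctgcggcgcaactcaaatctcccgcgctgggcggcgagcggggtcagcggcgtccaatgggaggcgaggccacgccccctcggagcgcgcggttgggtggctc

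The motif searched was TTTCCCGC, TTTGGCGC, TTTCGCGC or TTTGCCGC on either strand, in windows from 250 bases before to 50 after the start; TTTCGCGC and TTTGGCGC on opposite strands can overlap, as they do in Mcm5 and Mcm6. Windows were found for 41 of the 49 genes (Mcm4, Gmnn, Gins1, Gins2, Gins4, Rfc2, Pole and Prim2 had none), and 16 of the 41 (39.0%) held a match, compared with 4.67% of the 10747 tested protein-coding genes that had a window. Counted by window, the shares were 32.7% of 49 windows and 3.83% of 13788. Among the genes called lower in BMP4 than in bFGF/EGF, 13 of 32 (40.6%) held a match, and among those not called, 3 of 9 (33.3%: Mcm8, Gins3 and Orc3) did. By role, the matches were in 4 of 5 Mcm2-7 genes with a window (Mcm3, Mcm5, Mcm6 and Mcm7), in Cdc6 and Cdt1, and in 3 of 4 delta and epsilon polymerase genes, whereas none was in the 5 nucleotide supply genes, the 3 RPA genes or the 2 chromatin assembly genes. The CHR motif (TTTGAA or TTCGAA, either strand), an element of genes that peak later in the cycle, was in 7 of 41 genes (17.1%) and in 16.1% of the tested protein-coding genes. A match describes letters in the window and not a site that was shown to be bound.

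To learn how far the replication genes fell when EGF, or both growth factors, gave way to BMP4, each BMP4 group was compared with bFGF/EGF, and a gene was called when its adjusted p was at most 0.05 and its fold change at least 2 (limma on log2(FPKM + 0.1), Benjamini-Hochberg over all 20207 genes; the added 0.1 understates the change of low genes). In bFGF/BMP4-treated NSCs 39 of the 49 genes fell and 0 rose, while 14.1% of all genes tested were called lower and 16.5% higher. In BMP4-treated NSCs 39 fell and 0 rose, against 15.4% lower and 21.3% higher over all genes. The median log2 fold change of the 49 genes was -1.92 in bFGF/BMP4 and -2.60 in BMP4, whereas that of all genes was 0.06 and 0.10. With the adjusted p alone, 43 were lower and 0 higher in bFGF/BMP4 (23.6% and 25.0% of all genes), and 46 were lower and 2 higher, Orc3 and Rpa1, in BMP4 (25.3% and 29.6%). At an unadjusted p under 0.05, the genes that were higher numbered 0 and 2, and limma-voom on fragment numbers recovered from the FPKM values called 0 higher in either. The libraries of the groups did not overlap, with bFGF/EGF above, for 42 genes in bFGF/BMP4 (27.5% of all genes) and for 46 in BMP4 (27.8%). They did not overlap in the other direction for 1, Orc3, in bFGF/BMP4 (30.2% of all genes) and for 2, Orc3 and Rpa1, in BMP4 (32.6%). Both comparisons share their control libraries, and 38 genes were called lower in both. In bulk RNA, fewer cells that transcribe these genes and less RNA per cell cannot be told apart.

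**Figure D1:**
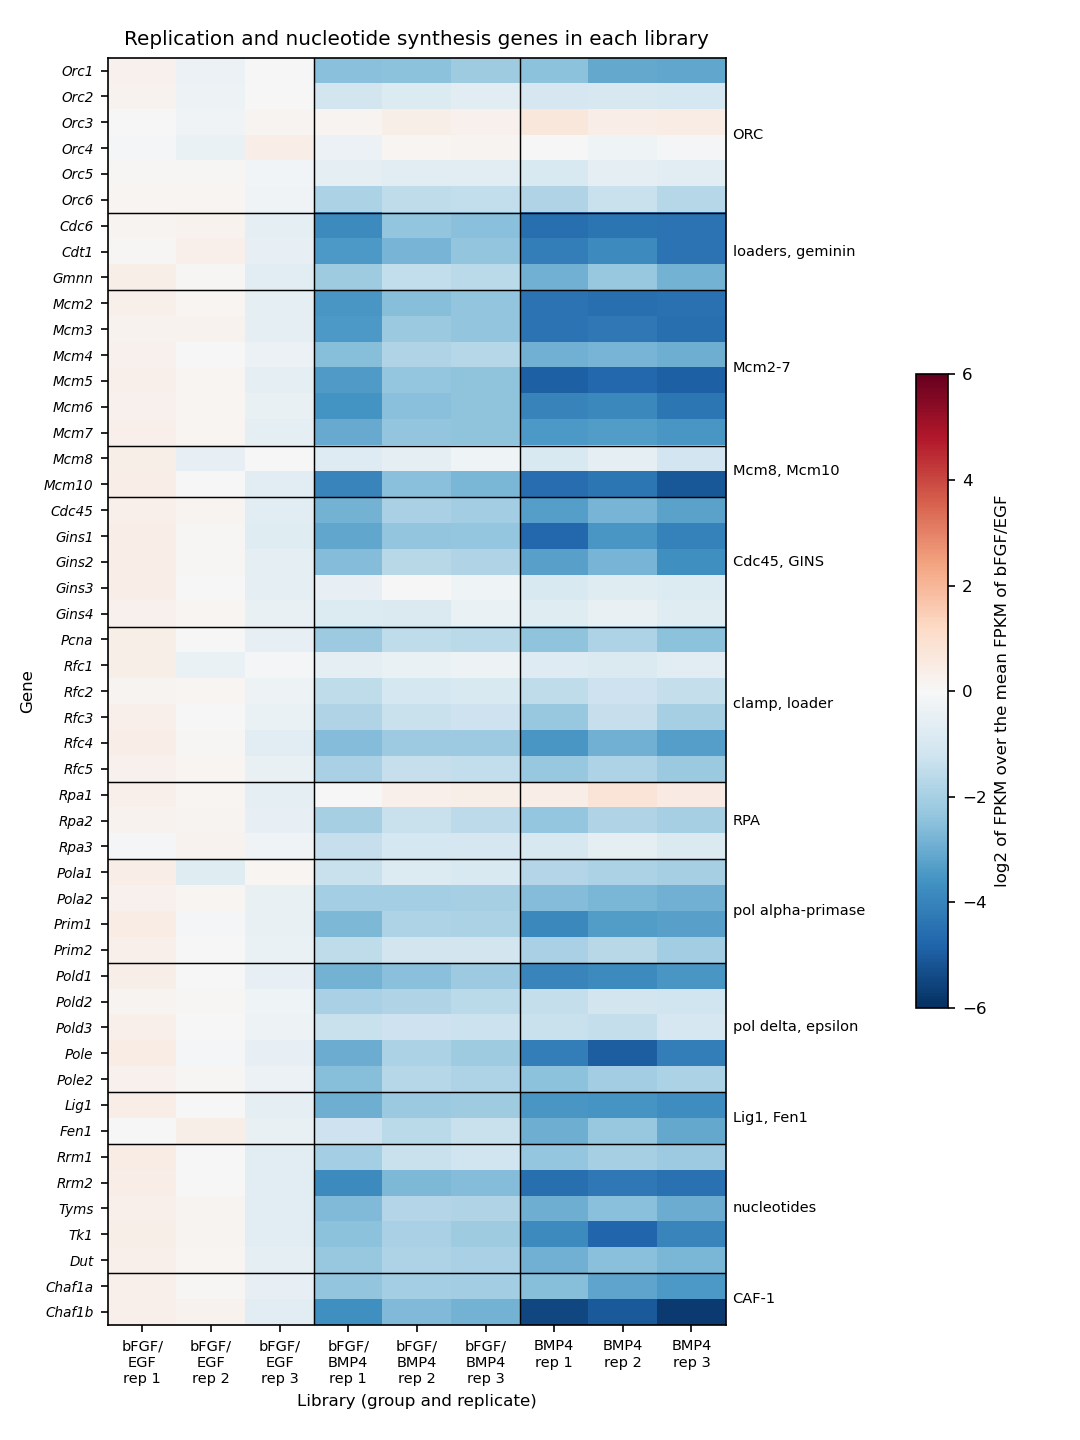
Heat map of the 49 genes (rows, by role) in the 9 libraries (columns), coloured by the log2 ratio of a library's FPKM to the mean FPKM of the bFGF/EGF group. Blue deepens from bFGF/BMP4 to BMP4 for most genes, and most in Mcm5, Chaf1b, Tk1 and Pole, while Orc3, Orc4 and Rpa1 stay pale in every library.

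The median level that remained differed between the roles, but genes within some roles ranged widely. In bFGF/BMP4-treated NSCs the median gene kept 25.6% of its bFGF/EGF mean, and no gene was below 10%. In BMP4-treated NSCs the median gene kept 15.4%, 16 genes were below 10%, and only 2 (Orc3 and Rpa1) were above 100%. The licensing loaders and the Mcm2-7 genes were left lowest in BMP4 (medians of 5.79% and 5.35%), followed by chromatin assembly factor 1 (7.37%), whereas RPA and the origin recognition complex were left at medians of 58.0% and 55.3%. Within the origin recognition complex the level ran from 13.7% (Orc1) to 143% (Orc3), and within RPA from 24.6% (Rpa2) to 147% (Rpa1). Orc1 was thus left as low as Mcm4 (13.7%). Of the 49 genes, 42 were ordered bFGF/EGF above bFGF/BMP4 above BMP4 by their means. Differences between roles are given as description and were not tested.

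The comparison of BMP4 with bFGF/BMP4 has the same day of collection in both groups and differs only in whether bFGF was present. Of the 49 genes 17 were lower in BMP4 and 0 higher, against 5.14% lower and 8.41% higher over all genes tested, and the median log2 difference was -0.68 for the 49 and 0.00 for all genes. With the adjusted p alone, 23 were lower and 1, Pold2, was higher (8.89% and 12.2% of all genes). At an unadjusted p under 0.05 Pold2 was likewise the 1 that was higher, and limma-voom called 0 higher. The groups did not overlap, with BMP4 below, for 28 genes (18.3% of all genes) and with BMP4 above for 4, Orc3, Rpa1, Rpa3 and Pold2 (20.5% of all genes). The 17 were Cdc6, Cdt1, Mcm2, Mcm3, Mcm5, Mcm6, Mcm10, Gins1, Gins2, Prim1, Pold1, Pole, Lig1, Fen1, Rrm2, Tk1 and Chaf1b. That number depended on single libraries: it was 9 without bFGF/BMP4 replicate 2, without bFGF/BMP4 replicate 3 or without BMP4 replicate 3, 11 without BMP4 replicate 1 and 22 without bFGF/BMP4 replicate 1. It was 7 when 1 FPKM in place of 0.1 was added before the logarithm. Mcm2, Mcm3, Mcm5, Tk1 and Chaf1b, 5 of the 17, were called under every alternative that was run.

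**Figure D2:**
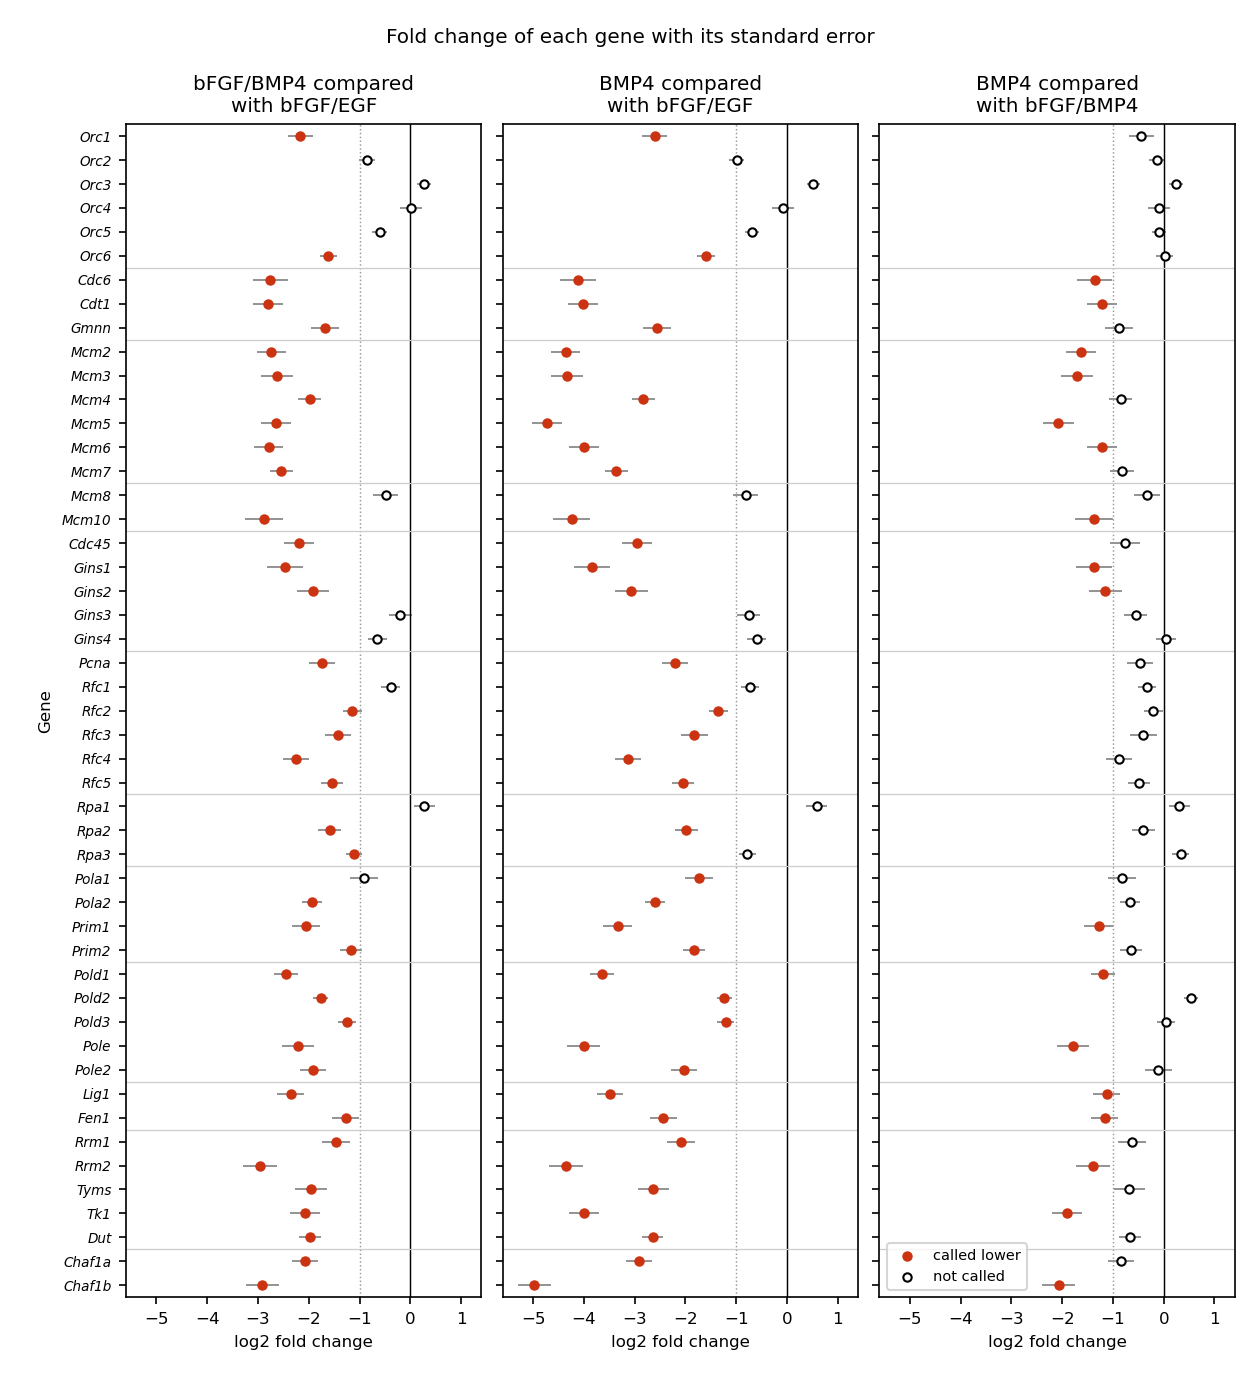
Log2 fold change (x axis) of each of the 49 genes (y axis, by role) in the 3 comparisons, from limma on log2(FPKM + 0.1), with bars of 1 standard error, a dotted line at a fold of 2, filled points for genes called lower and open points for the rest. The filled points number 39, 39 and 17, and only Orc3, Orc4 and Rpa1 lie above 0 in bFGF/BMP4 compared with bFGF/EGF.

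In the origin recognition complex, which marks the places where replication can start, 2 of 6 genes, Orc1 and Orc6, fell in either BMP4 group. Over all genes tested, 14.1% were called lower in bFGF/BMP4 and 15.4% in BMP4. Between the BMP4 groups 0 of the 6 differed by limma, at an unadjusted p under 0.05 or by limma-voom. Limma called 5.14% of all genes lower and 8.41% higher there, so a count of 0 among 6 genes is near those shares. Orc1, its large ATPase subunit, was at 3.82, 2.49 and 3.19 FPKM in bFGF/EGF, at 0.555, 0.581 and 0.723 in bFGF/BMP4 and at 0.566, 0.373 and 0.366 in BMP4. Every BMP4-containing library was thus below every bFGF/EGF library, and the BMP4 groups overlapped. The log2 fold change was -2.17 (SE 0.25, adjusted p = 6.48e-05) in bFGF/BMP4 and -2.61 (SE 0.25, adjusted p = 1.34e-05) in BMP4, and -0.44 (SE 0.25, adjusted p = 0.266) between them.

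Orc6, the smallest subunit, was at 25.5, 25.3 and 20.2 FPKM in bFGF/EGF, at 6.30, 8.26 and 8.45 in bFGF/BMP4 and at 6.76, 9.33 and 7.29 in BMP4. It fell by 1.62 and 1.60 on the log2 scale from bFGF/EGF (adjusted p = 3.61e-05 and 2.73e-05), and the BMP4 groups lay on top of each other (log2 difference 0.02, SE 0.17, adjusted p = 0.958). Orc2 was at 15.7, 11.1 and 13.8 FPKM, then 6.29, 7.55 and 8.39, then 6.75, 6.87 and 6.44, a log2 change of -0.86 and -0.99 that passed the adjusted p (0.00116 and 0.000364) but was just under the fold of 2. Orc5 changed by -0.61 and -0.69, also within a fold of 2.

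Orc4 did not separate the groups: it was at 4.45, 3.65 and 6.45 FPKM in bFGF/EGF, at 3.85, 5.26 and 5.40 in bFGF/BMP4 and at 4.79, 4.02 and 4.62 in BMP4, with log2 changes of 0.02 and -0.08 (SE 0.22 for each). Orc3 went the other way, from 8.22, 6.93 and 9.23 FPKM to 9.25, 10.2 and 9.84 and then 12.9, 10.8 and 11.2. Its BMP4 libraries all lay above the others, with a log2 change of 0.52 from bFGF/EGF (SE 0.13, adjusted p = 0.0076), below the fold of 2. Of the exon bases of Orc3, 32.9% are also covered by exons of Akirin2, so reads of the neighbours may be mixed where strand was not used in counting. The ratio of Orc1 to Orc2 within a library went from 0.233 ± 0.0095 (SD, n = 3) in bFGF/EGF to 0.0837 ± 0.0060 in bFGF/BMP4 and 0.0650 ± 0.0164 in BMP4.

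Cdc6 and Cdt1, which bring the helicase to the origin complex, fell together with geminin, the inhibitor of Cdt1. Cdc6 was at 10.5, 10.8 and 6.36 FPKM in bFGF/EGF, at 0.643, 1.76 and 1.64 in bFGF/BMP4 and at 0.400, 0.437 and 0.429 in BMP4. The 3 groups did not overlap, and the BMP4 libraries varied least. The log2 changes were -2.76 (SE 0.35, adjusted p = 0.000122) and -4.12 (SE 0.35, adjusted p = 6.1e-06) from bFGF/EGF, and -1.36 (SE 0.35, adjusted p = 0.0194) from bFGF/BMP4 to BMP4.

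Cdt1 was at 31.2, 36.0 and 20.6 FPKM in bFGF/EGF, at 2.68, 4.23 and 5.69 in bFGF/BMP4 and at 1.65, 2.08 and 1.35 in BMP4. It kept 14.4% and then 5.79% of its bFGF/EGF mean, with a log2 difference of -1.22 between the BMP4 groups (SE 0.29, adjusted p = 0.014). Gmnn, at 20.9, 17.3 and 10.5, then 3.65, 5.74 and 5.34, then 2.23, 3.33 and 2.28 FPKM, kept more: 30.3% and 16.1%. Its difference between the BMP4 groups, -0.88, passed the adjusted p (0.0461) but not the fold. The ratio of Cdt1 to Gmnn was 1.495, 2.08 and 1.96 in the bFGF/EGF libraries, 0.732, 0.738 and 1.07 in bFGF/BMP4 and 0.740, 0.626 and 0.594 in BMP4, so both BMP4 groups lay below bFGF/EGF and overlapped each other.

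The Mcm2-7 genes, whose products form the ring-shaped helicase, all fell in both comparisons with bFGF/EGF, where 14.1% and 15.4% of all genes were called lower. Mcm5 (ENSMUSG00000005410, chr8:75836140-75856231 in GRCm39) had the largest fall of the ring in BMP4. It was at 68.8, 61.9 and 37.8 FPKM in bFGF/EGF, at 5.27, 11.3 and 10.5 in bFGF/BMP4 and at 1.91, 2.12 and 1.85 in BMP4. The lowest bFGF/EGF library was still above the highest bFGF/BMP4 library, and the BMP4 libraries were within a narrow range far below both. The log2 changes were -2.65 (SE 0.30, adjusted p = 5.51e-05) and -4.73 (SE 0.30, adjusted p = 9.62e-07), and the difference of -2.07 between the BMP4 groups (SE 0.30, adjusted p = 0.000754) was, with that of Chaf1b, the largest of the 49 genes.

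Mcm2 and Mcm3 followed the same order. Mcm2 was at 48.1, 42.7 and 26.4 FPKM, then 3.51, 6.65 and 7.52, then 1.80, 1.70 and 1.74; Mcm3 was at 72.9, 73.3 and 42.6, then 5.76, 13.5 and 12.2, then 2.91, 3.24 and 2.71. Their log2 differences between the BMP4 groups were -1.63 (adjusted p = 0.00274) and -1.70 (adjusted p = 0.00323). Mcm6 was at 68.2, 62.5 and 43.3, then 4.87, 10.3 and 10.7, then 3.62, 3.92 and 2.91 FPKM, with a difference of -1.21 (adjusted p = 0.0144). Mcm6 carries the overlapping pair of motifs and a further match in the promoter printed above, and Mcm5 the overlapping pair.

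Mcm4 and Mcm7 were left higher than the rest of the ring. Mcm4 was at 64.7, 53.2 and 42.0 FPKM, then 9.12, 15.4 and 16.3, then 7.29, 7.66 and 6.89. Mcm7 was at 72.3, 64.8 and 40.4, then 7.34, 11.4 and 11.3, then 5.47, 5.78 and 5.26. Neither gene's BMP4 libraries overlapped those of bFGF/BMP4, and their log2 differences of -0.85 and -0.82 passed the adjusted p (0.0223 and 0.0293) but not the fold. BMP4-treated NSCs held 13.7% of the bFGF/EGF level of Mcm4, compared with 3.49% for Mcm5.

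The levels of the ring genes, which FPKM puts on a scale per gene length, moved apart as they fell. The highest Mcm2-7 gene was 1.62 ± 0.10 (SD, n = 3) times the lowest in bFGF/EGF, 2.36 ± 0.22 times in bFGF/BMP4 and 4.17 ± 0.29 times in BMP4, with no overlap of the groups. Mcm2 was the lowest in all 9 libraries, and the highest was Mcm3 or Mcm6 in bFGF/EGF and Mcm4 in all 6 BMP4-containing libraries. This ratio rests on the gene lengths that the authors used, since the highest gene was not the same in every group. For a fixed pair, where lengths cancel between groups, Mcm4 was 1.39 ± 0.18, 2.36 ± 0.22 and 4.17 ± 0.29 times Mcm2 (SD, n = 3), again with no overlap. Mcm7 shares 6.13% of its exon bases with Cops6 on the opposite strand, which was at 57.8, 37.1 and 38.9 FPKM.

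Mcm10, which helps to activate the loaded helicase, was at 11.3, 8.71 and 5.56 FPKM, then 0.550, 1.49 and 1.29, then 0.360, 0.417 and 0.252, and fell by 2.88, by 4.24 and, between the BMP4 groups, by 1.37 on the log2 scale (adjusted p = 0.00014, 7.6e-06 and 0.0255). Mcm8, a helicase of recombination that is not part of the ring, was at 4.07, 2.25 and 3.24, then 1.86, 2.10 and 2.67, then 1.69, 2.13 and 1.42 FPKM. Its bFGF/EGF and bFGF/BMP4 libraries overlapped, and its changes of -0.48 and -0.81 were not called. Mcm10 thus kept 4.03% of its bFGF/EGF mean in BMP4 and Mcm8 54.8%.

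Cdc45 and the GINS complex complete the active helicase, and they did not move as a unit. Cdc45 was at 16.4, 15.0 and 8.44 FPKM, then 1.86, 3.46 and 3.10, then 1.34, 1.92 and 1.45; Gins1 was at 17.0, 13.5 and 7.84, then 1.48, 2.49 and 2.56, then 0.487, 1.14 and 0.760. Both fell from bFGF/EGF to BMP4, by 2.96 and 3.84 on the log2 scale (adjusted p = 1.83e-05 and 1.04e-05), and Gins1 also from bFGF/BMP4 to BMP4 (by 1.37, adjusted p = 0.0197). Gins2 fell by 3.06 from bFGF/EGF to BMP4 (adjusted p = 2.6e-05), with 67.3% of its exon bases also under exons of Gse1 on the opposite strand, which was at 4.03, 11.3 and 9.95 FPKM.

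Gins3 and Gins4 were not called in any comparison. Gins3 was at 5.99, 4.37 and 3.09 FPKM in bFGF/EGF, at 3.22, 4.43 and 3.71 in bFGF/BMP4 and at 2.41, 2.67 and 2.51 in BMP4, so only its BMP4 libraries stood below the others (log2 change -0.75, SE 0.23, adjusted p = 0.0172). Gins4 was at 27.6, 25.2 and 17.3, then 13.4, 12.9 and 17.8, then 14.0, 17.2 and 14.2 FPKM, and kept 63.1% and 64.8%. The GINS complex holds its subunits in equal number, while the level left in BMP4 ran from 6.23% for Gins1 to 64.8% for Gins4.

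Pcna, the ring that tethers polymerases to DNA, had the highest mean level per length of the 49 genes in bFGF/EGF and in bFGF/BMP4. It was at 195, 154 and 110 FPKM in bFGF/EGF, at 33.3, 52.7 and 50.1 in bFGF/BMP4 and at 28.5, 42.1 and 27.9 in BMP4. Both BMP4 groups were below every bFGF/EGF library and overlapped each other. The log2 changes were -1.74 (SE 0.25, adjusted p = 0.000319) and -2.20 (SE 0.25, adjusted p = 4.99e-05), and the difference between the BMP4 groups was -0.46 (SE 0.25, adjusted p = 0.25). A processed copy, Pcna-ps2, was at 3.45, 0.942 and 0.786 FPKM on average, and reads that the copies share could have been counted for either.

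Of the clamp loader genes, Rfc2, Rfc3, Rfc4 and Rfc5 fell in both comparisons with bFGF/EGF. Between the BMP4 groups limma called 0 of the 5 loader genes and limma-voom 0, while 2 were lower at an unadjusted p under 0.05. Over all genes, limma called 5.14% lower and 8.41% higher there, so 0 of 5 is near those shares. Rfc4 had the largest change, from 34.3, 27.4 and 17.1 FPKM to 4.34, 5.74 and 5.72 and then 2.33, 3.50 and 2.65 (log2 change -3.13 in BMP4, SE 0.25, adjusted p = 4.43e-06). Rfc1, the large subunit that is particular to this loader, was at 21.1, 12.4 and 15.7, then 10.9, 12.5 and 13.3, then 9.68, 9.10 and 10.2 FPKM, and its changes of -0.39 and -0.73 were not called. Rfc5 has 41.4% and Rfc4 16.5% of its exon bases under a gene of the opposite strand, Wsb2 and Eif4a2. Wsb2 averaged 38.6, 16.5 and 14.4 FPKM, falling in the same direction as Rfc5, and Eif4a2 averaged 39.8, 69.0 and 82.9. The part of reads of Wsb2 in the fall of Rfc5 was not tested.

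RPA coats single-stranded DNA at forks and at sites of repair, and its genes went in different directions. Rpa2 fell, from 26.6, 26.2 and 16.7 FPKM to 5.89, 9.06 and 7.90 and then 4.65, 6.66 and 5.79 (log2 change -1.58 and -1.99, adjusted p = 0.000264 and 4.37e-05). Rpa1, the large DNA-binding subunit, was at 32.7, 28.8 and 18.3 in bFGF/EGF, at 27.2, 33.1 and 34.2 in bFGF/BMP4 and at 35.0, 44.8 and 37.2 in BMP4. Its BMP4 libraries were above all others, with a log2 change of 0.58 from bFGF/EGF (SE 0.21, adjusted p = 0.0348) that did not reach a fold of 2. Rpa3, at 15.2, 18.4 and 13.8, then 6.14, 7.69 and 7.96, then 8.24, 10.7 and 8.59 FPKM, fell in bFGF/BMP4 (log2 change -1.11, adjusted p = 0.000274) and was at -0.78 in BMP4. The call of Rpa3 was lost without bFGF/EGF replicate 2 or without bFGF/BMP4 replicate 1.

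**Figure D3:**
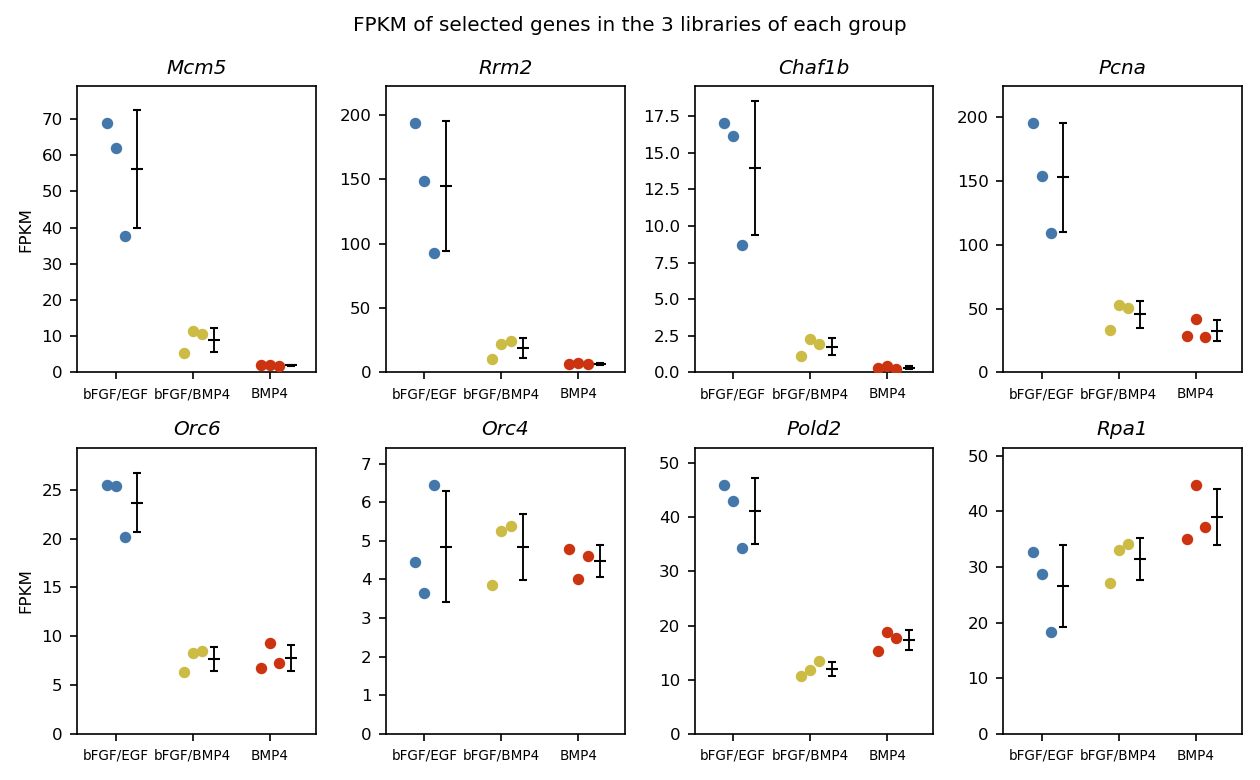
FPKM (y axis, from 0) of 8 genes in the 3 libraries of each group (points), with the group mean and 1 SD beside them. Mcm5, Rrm2 and Chaf1b step down again from bFGF/BMP4 to BMP4, the BMP4 groups of Pcna and of Orc6 overlap, Orc4 does not separate the groups, Pold2 is higher in BMP4 than in bFGF/BMP4, and Rpa1 is highest in BMP4.

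Polymerase alpha-primase starts each new strand. Prim1, the catalytic primase subunit, was at 17.0, 11.7 and 9.25 FPKM, then 1.98, 3.56 and 3.36, then 0.860, 1.25 and 1.33, and fell at each step: by 2.05 and 3.33 from bFGF/EGF and by 1.28 between the BMP4 groups (adjusted p = 0.000223, 6.53e-06 and 0.00961). Pola2 was called in both comparisons with bFGF/EGF, with log2 changes of -1.94 and -2.60, and Prim2 with -1.17 and -1.83. Pola1, the catalytic polymerase subunit, was at 6.49, 2.95 and 5.37, then 1.96, 2.83 and 2.65, then 1.45, 1.34 and 1.24 FPKM. It was called in BMP4 (-1.73, SE 0.27, adjusted p = 0.000412) and not in bFGF/BMP4 (-0.91, SE 0.27, adjusted p = 0.0198).

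All 5 genes of polymerases delta and epsilon fell in both BMP4 groups, while 14.1% and 15.4% of all genes tested were called lower. The catalytic subunits had the lowest levels left in BMP4 (not tested between genes). Pole, the catalytic subunit of the leading-strand polymerase, was at 9.77, 6.78 and 5.25 FPKM, then 0.926, 1.93 and 1.64, then 0.408, 0.238 and 0.413, and kept 20.7% and 4.86%. Pold1, the catalytic subunit of the lagging-strand polymerase, was at 29.7, 23.4 and 16.7, then 3.24, 4.12 and 5.09, then 1.496, 1.65 and 2.10, and kept 17.8% and 7.51%. Both fell between the BMP4 groups, Pole by 1.79 (SE 0.32, adjusted p = 0.00287) and Pold1 by 1.19 (SE 0.24, adjusted p = 0.00504).

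The accessory subunits Pole2, Pold2 and Pold3 were not called between the BMP4 groups. Limma called 5.14% of all genes lower and 8.41% higher there, so the lack of a call among these few genes is near those shares. Pold2 was at 46.0, 43.1 and 34.3 FPKM in bFGF/EGF, at 10.8, 11.7 and 13.4 in bFGF/BMP4 and at 15.4, 18.9 and 17.8 in BMP4. Its BMP4 libraries all lay above those of bFGF/BMP4, a log2 difference of 0.53 (SE 0.14, adjusted p = 0.0241) within a fold of 2. Pole2 and Pold3 differed by -0.11 (SE 0.26) and 0.04 (SE 0.17) between the BMP4 groups.

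Lig1, which seals Okazaki fragments, was at 54.2, 41.1 and 27.9 FPKM, then 5.40, 8.90 and 9.26, then 3.69, 3.53 and 3.14. It fell by 2.36 and 3.48 from bFGF/EGF and by 1.13 between the BMP4 groups (adjusted p = 4.87e-05, 2.66e-06 and 0.0111). Fen1, the flap nuclease that trims those fragments, was at 2.67, 3.42 and 1.99, then 1.16, 0.888 and 1.07, then 0.356, 0.561 and 0.325, with log2 changes of -1.27, -2.44 and -1.17 (adjusted p = 0.00297, 3.49e-05 and 0.011). The values of Fen1 rest on few fragments (13 to 22 in a BMP4 library), and 59.0% of its exon bases lie under the non-coding gene Gm10143 of the opposite strand.

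Among the nucleotide supply genes, Rrm2, the small subunit of ribonucleotide reductase that limits the enzyme in S phase, fell most. Rrm2 (ENSMUSG00000020649, chr12:24757811-24764145 in GRCm39) was at 193, 149 and 92.4 FPKM in bFGF/EGF, at 10.4, 22.3 and 24.1 in bFGF/BMP4 and at 6.27, 7.40 and 6.48 in BMP4. The groups did not overlap. The log2 changes were -2.96 (SE 0.33, adjusted p = 5.68e-05) and -4.35 (SE 0.33, adjusted p = 3.22e-06), and -1.39 (SE 0.33, adjusted p = 0.0136) between the BMP4 groups.

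Rrm1, the large subunit, fell less than its partner. It was at 45.9, 34.3 and 22.3 FPKM, then 8.20, 13.5 and 15.0, then 6.87, 8.57 and 7.52, with log2 changes of -1.46 and -2.09 (adjusted p = 0.00162 and 0.000129). The ratio of Rrm2 to Rrm1 was 4.22, 4.33 and 4.14 in the bFGF/EGF libraries, 1.26, 1.66 and 1.61 in bFGF/BMP4 and 0.912, 0.863 and 0.861 in BMP4. Although the level of either gene differed by over 2-fold among the bFGF/EGF libraries, their ratio varied by an SD of 0.0982 around 4.23 there.

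Rrm2b, which encodes the small subunit used outside S phase and is not counted among the 49, went the other way: it was at 1.75, 1.48 and 3.17 FPKM in bFGF/EGF, at 3.52, 4.12 and 3.89 in bFGF/BMP4 and at 4.56, 4.44 and 4.22 in BMP4. It rose in BMP4 (log2 change 1.08, SE 0.24, adjusted p = 0.00346), and its change in bFGF/BMP4 was 0.89 (adjusted p = 0.0117), within a fold of 2. The ratio of Rrm2 to Rrm2b was 110, 100.3 and 29.2 in the bFGF/EGF libraries, 2.94, 5.42 and 6.20 in bFGF/BMP4 and 1.38, 1.67 and 1.54 in BMP4. The FPKM values of the small subunits, which were far apart in proliferating cells, were thus near each other in BMP4. The ratio in bFGF/EGF replicate 3 was the lowest of its group. The nearness in BMP4 rests on the gene lengths that the authors used. Before division by length, the BMP4 libraries held 282 to 332 fragments of Rrm2 and 635 to 676 of Rrm2b.

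Tk1, the thymidine salvage kinase, fell at each step: it was at 21.5, 18.7 and 10.7 FPKM, then 3.13, 4.40 and 3.87, then 1.18, 0.618 and 1.07. Its log2 difference between the BMP4 groups was -1.91 (SE 0.30, adjusted p = 0.00122). Tyms, which makes thymidylate, was at 9.51, 8.67 and 4.81, then 1.22, 2.25 and 2.19, then 1.00, 1.37 and 0.966 FPKM, and Dut, which removes dUTP, was at 41.7, 36.7 and 23.3, then 7.02, 9.25 and 8.72, then 4.55, 5.99 and 5.06. Both fell from bFGF/EGF (Tyms by 1.96 and 2.64, Dut by 1.98 and 2.65 on the log2 scale), and their differences of -0.68 and -0.67 between the BMP4 groups were not called (adjusted p = 0.16 and 0.0519).

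**Figure D4:**
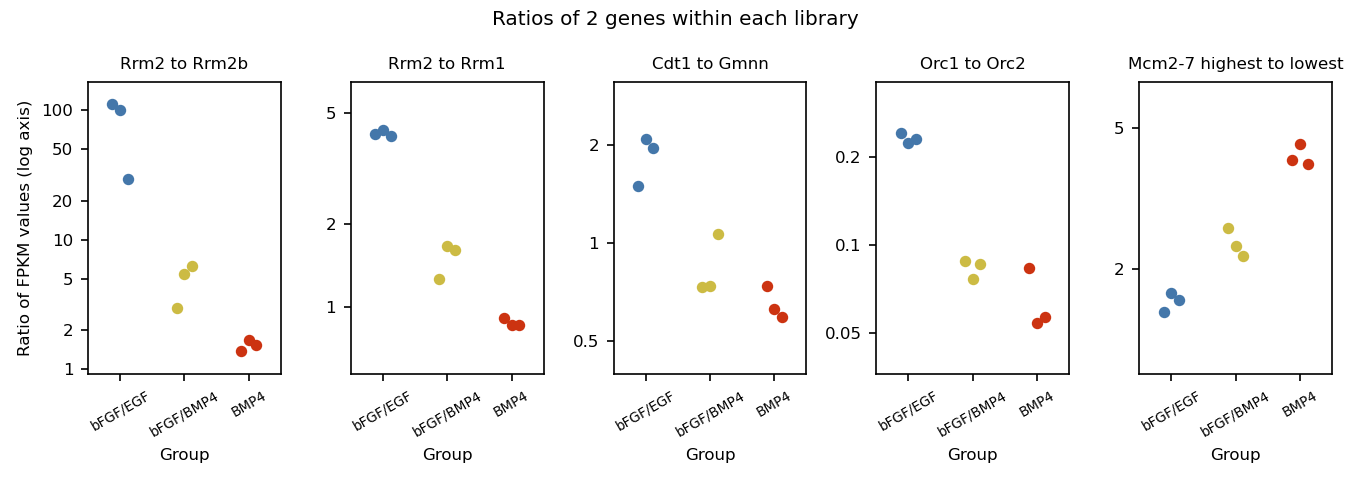
Ratio of the FPKM values of 2 genes in each library (y axis, log scale) by group (x axis, 3 points a group). Rrm2 to Rrm1 and Rrm2 to Rrm2b step down from bFGF/EGF to bFGF/BMP4 to BMP4 without overlap, Cdt1 to Gmnn and Orc1 to Orc2 are lower in each BMP4 group, and the spread of the Mcm2-7 genes widens from 1.62 to 4.17.

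Chromatin assembly factor 1 lays histones on new DNA. Chaf1b (ENSMUSG00000022945, chr16:93680768-93703003 in GRCm39) had the largest fall of the 49 genes in BMP4: it was at 17.0, 16.2 and 8.69 FPKM in bFGF/EGF, at 1.09, 2.26 and 1.93 in bFGF/BMP4 and at 0.316, 0.422 and 0.259 in BMP4. BMP4-treated NSCs kept 2.38% of the bFGF/EGF level, with log2 changes of -2.92 (SE 0.32, adjusted p = 5.4e-05), -4.98 (SE 0.32, adjusted p = 1.21e-06) and, between the BMP4 groups, -2.06 (SE 0.32, adjusted p = 0.00134). Chaf1a was at 11.5, 9.89 and 6.65, then 1.81, 2.30 and 2.21, then 1.57, 1.03 and 0.870, with log2 changes of -2.07 and -2.92 (adjusted p = 0.000102 and 7.45e-06). Of the exon bases of Chaf1a, 51.0% lie under Ubxn6 on the opposite strand, which stayed between 3.65 and 3.75 FPKM on average.

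Within groups, the genes moved together by library. The bFGF/EGF replicate 3 was the lowest of its group for 42 of the 49 genes, and for 36.8% of all genes tested, and bFGF/BMP4 replicate 1 was the lowest of its group for 45 of the 49 and for 42.8% of all genes. Taken as a percent of each gene's bFGF/EGF mean, the median gene was at 123%, 106% and 72.1% in the bFGF/EGF libraries, at 20.7%, 29.3% and 28.7% in bFGF/BMP4 and at 16.2%, 17.9% and 13.7% in BMP4. The libraries also differed in their FPKM summed over all genes. That sum was 280028, 294652 and 256230 in bFGF/EGF, 273828, 279658 and 282993 in bFGF/BMP4 and 278175, 326302 and 278433 in BMP4. The proliferation marker Mki67 was at 51.2, 19.8 and 31.2 FPKM, then 7.22, 13.6 and 10.1, then 1.79, 1.55 and 1.82, so its lowest bFGF/EGF library was replicate 2 and not replicate 3. The part of these library differences in the results was not tested.

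The rest of the pathway was read from 4 further lists. The shares of all genes tested that were called lower, for reading their counts, were 14.1% in bFGF/BMP4, 15.4% in BMP4 and 5.14% between the BMP4 groups. Those called higher were 16.5%, 21.3% and 8.41% in the same order. Of 30 other initiation and fork genes, 18 (60.0%) fell and 0 rose in bFGF/BMP4, 22 (73.3%) fell and 0 rose in BMP4, and 10 (33.3%) were lower and 0 higher in BMP4 than in bFGF/BMP4. At an unadjusted p under 0.05, 1 gene was higher in each of these comparisons, and limma-voom called 0 higher. Cdc7 and Dbf4, the kinase and its activator that fire licensed origins, were at 10.7, 7.71 and 8.89 and at 9.93, 5.06 and 5.34 FPKM in bFGF/EGF, and at 0.869, 0.797 and 0.971 and at 0.586, 0.743 and 0.521 in BMP4. Both also fell between the BMP4 groups (by 1.29 and 1.00 on the log2 scale, adjusted p = 0.0014 and 0.0445).

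The largest log2 changes of this list in BMP4 were those of Timeless, a fork protection factor (-4.22, adjusted p = 6.51e-07), Dtl, which marks Cdt1 for destruction (-4.17, adjusted p = 1.15e-06), and Ticrr, which brings Cdc45 to origins (-4.12, adjusted p = 4.66e-06). Their order depends on the 0.1 FPKM added, since they kept 4.58%, 4.07% and 3.59% of their bFGF/EGF means. Top2a, the topoisomerase that untangles replicated chromosomes, had the largest difference between the BMP4 groups (-2.47, adjusted p = 0.000675), going from 9.57, 15.3 and 20.2 FPKM in bFGF/BMP4 to 2.50, 2.12 and 2.97 in BMP4. Clspn, the fork checkpoint adaptor, differed by -1.73 (adjusted p = 0.0043).

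Of 28 other nucleotide genes, 16 fell and 0 rose in bFGF/BMP4 (2 were higher at an unadjusted p under 0.05, and limma-voom called 0 higher), and 17 fell and 1, Rrm2b, rose in BMP4. Only 1, Mthfd2 of mitochondrial folate metabolism, was lower in BMP4 than in bFGF/BMP4: it was at 9.71, 10.3 and 9.63 FPKM in bFGF/BMP4 and at 2.72, 4.55 and 3.13 in BMP4 (log2 difference -1.52, adjusted p = 0.00016). That share, 3.57%, was below the 5.14% of all genes called in the same direction. Shmt1, a folate enzyme that feeds thymidylate synthesis, and Impdh1, an enzyme of guanine nucleotide synthesis, had the largest falls in BMP4 (-3.26 and -2.86), and their differences between the BMP4 groups were -0.56 (adjusted p = 0.0962) and 0.08 (adjusted p = 0.772). Samhd1, which breaks deoxynucleotides down, changed by -0.72 and -0.74, within a fold of 2.

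Of 13 other chromatin replication genes, 10 fell in bFGF/BMP4 and 11 in BMP4, with 0 rising (by limma, at an unadjusted p under 0.05 and by limma-voom), and 4 were lower in BMP4 than in bFGF/BMP4. Uhrf1, which keeps DNA methylation on new strands, was at 76.3, 67.0 and 43.1 FPKM, then 4.11, 8.98 and 8.84, then 1.95, 1.54 and 1.77, a log2 change of -5.04 in BMP4 (adjusted p = 7.68e-07). Hells, a chromatin remodeler, and Asf1b, a histone chaperone that works with chromatin assembly factor 1, changed by -3.51 and -3.36 in BMP4.

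The list of 16 E2F, DP and pocket protein genes holds regulators of transcription at G1/S. In bFGF/BMP4 8 fell and 1 (6.25%) rose, in BMP4 10 (62.5%) fell and 2 (12.5%) rose, the rises being under the 16.5% and 21.3% of all genes tested, and 7 (43.8%) were lower and 0 higher in BMP4 than in bFGF/BMP4 (0 at an unadjusted p under 0.05, and 0 by limma-voom). E2f2 (log2 change -4.78, adjusted p = 1.99e-06), E2f7 (-4.48, adjusted p = 4.73e-06) and Mybl2 (-4.12, adjusted p = 4.13e-06) had the largest log2 changes in BMP4, and kept 2.39%, 2.30% and 4.89% of their bFGF/EGF means. Between the BMP4 groups the largest log2 differences were those of E2f7, Foxm1 and E2f8 (-2.24, -1.73 and -1.72, adjusted p = 0.00163, 0.000875 and 0.0126).

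Rbl2 and Rb1, pocket proteins that bind E2F factors in cells outside the cycle, were the 2 that rose in BMP4, and they are named because they were the only ones, after their values were seen. Rbl2 was at 4.18, 3.46 and 4.23 FPKM in bFGF/EGF, at 10.5, 9.23 and 9.24 in bFGF/BMP4 and at 10.5, 8.14 and 10.4 in BMP4. It rose in both BMP4 groups alike (log2 change 1.27 and 1.27, adjusted p = 5.78e-05 and 4.28e-05), with 35.4% of its exon bases under Aktip on the opposite strand, which averaged 6.12, 19.7 and 14.9 FPKM. Rb1 was at 10.6, 7.69 and 10.1, then 17.9, 17.6 and 19.4, then 22.0, 20.2 and 22.1 FPKM, called in BMP4 (log2 change 1.19, adjusted p = 3.78e-05) and at 0.96 in bFGF/BMP4.

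**Figure D5:**
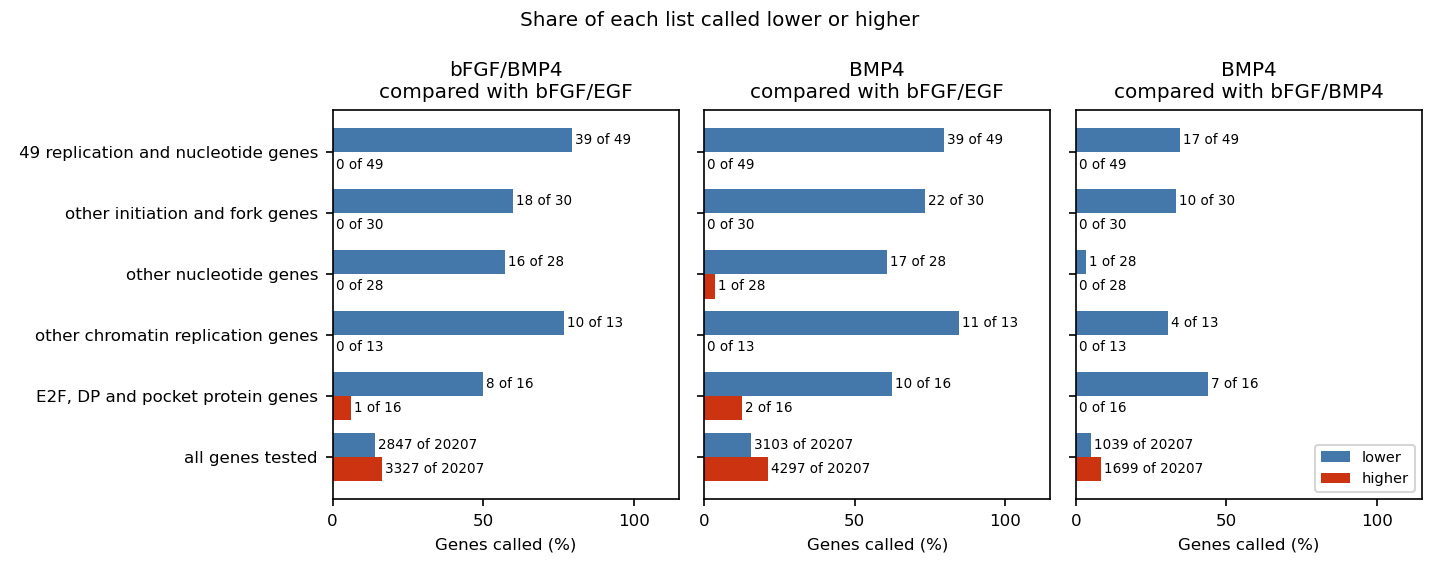
Percent of genes called lower (blue) or higher (red) at an adjusted p of at most 0.05 and a fold of at least 2 in each list (y axis) for the 3 comparisons, with the number called beside each bar. The 49 genes stand at 79.6%, 79.6% and 34.7% lower, and all genes tested at 14.1%, 15.4% and 5.14%.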

How the data were processed

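RNA-seq libraries of 3 bFGF/EGF-, 3 bFGF/BMP4- and 3 BMP4-treated NSC cultures were analysed. Per the labels' processing notes, reads were handled with fastp 0.19.7, HISAT2 2.0.5 and featureCounts 1.5.0-p3 on mm39. What the authors deposited is in FPKM; its program, the annotation release and the strand setting of the counting are not given in the sources used here. The study tested counts, which it gives in a supplementary table that was not used here; limma on the deposited FPKM took the place of that test at the same thresholds.

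Values were tested with limma 3.58.1 (R 4.3.3, with a variance trend), on log2(FPKM + 0.1) of genes whose mean reached 0.1 FPKM, with all libraries in the fit and Benjamini-Hochberg adjustment. Whole fragment numbers were recovered from all 30860 genes above 0 (within 0.01 of a whole number) and served limma-voom and the depths. Gene names and positions came from GENCODE vM39, which named 54749 genes, and promoters from RefSeq. Tables and plots were made with Python 3.11.15, pandas 2.3.3, numpy 2.4.6 and matplotlib 3.10.9.

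Named were the 49 genes, Mki67, Rrm2b, Samhd1, Cdc7, Dbf4 and Top2a, and, from each further list, the 3 called genes with the largest log2 fold change in BMP4 compared with bFGF/EGF and the 3 with the largest compared with bFGF/BMP4. The genes, lists and rules were chosen with earlier results of these data known. The alternatives were another added value, other filters and scalings, limma-voom, a fit with a replicate block, the groups compared fitted alone, no fold threshold, and each library left out in turn.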

Additional observations from a re-analysis of the deposited data

How the results depend on the processing

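The number of the 49 genes called lower was 37 to 43 (39 as reported) in bFGF/BMP4 and 39 to 46 (39 as reported) in BMP4, each compared with bFGF/EGF, over all alternatives. Of the 39 called genes, 35 and 39 respectively kept their call under every alternative; Rfc2, Rpa3, Prim2 and Fen1 lost it under 1 or 2 of them in bFGF/BMP4. For BMP4 compared with bFGF/BMP4 the number was 7 in place of 17 with 1 FPKM added, 14 in a fit of only the groups compared, and 9 to 22 when each library was left out in turn. With no fold threshold, 2 genes were higher in BMP4 than in bFGF/EGF and 1 higher than in bFGF/BMP4, where 0 were called as reported. No called gene changed its sign. Quantile normalization moved the median of all genes by -0.14 (log2) and a minimum mean of 1 FPKM by -0.10 in BMP4 compared with bFGF/EGF, and the calls of the 49 genes held in both. Replicate numbers did not pair the libraries: the deviations of same-numbered libraries correlated at -0.08 to 0.13, and with the replicate block the numbers of genes called lower were 39, 39 and 17, with no call changed.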
